A study of Mus musculus with 33 samples.

Results

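The response of ZMYND8 knockout (KO) lines to activation was described from 12 RNA-seq libraries of the 33 samples in the series. The tested libraries were the activated cultures of the lines KO1 and KO2, 6 in all, and each was set against the 6 unactivated cultures of the same lines, with the line as a covariate. All cells were CH12, a line grown from a mouse B cell lymphoma, which displays IgM and can be stimulated to switch to IgA. KO1 and KO2 are each 1 clone without ZMYND8, a protein that recognises acetylated and methylated histones. The activated and unactivated KO cultures therefore share the knockout, and they differ in the 48 h of activation. Each line and state had 3 cultures. The stimulus of the RNA-seq cultures is not named in the labels, nor is the deleted part of Zmynd8. The 12 libraries of the wild-type (WT) lines, the parental line and a WT clone in both states, were used only to ask where the response of the KO lines differed. The series also holds 8 ChIP-seq libraries and 1 GRO-seq library, which were not analysed here.

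Activated B cells receive signals through CD40, cytokine receptors and TGF-beta receptors. CD40 acts through TRAF adaptors and the NF-kB transcription factors, cytokine receptors act through JAK kinases and STAT factors, and TGF-beta receptors act through SMAD proteins. In class switch recombination DNA is broken and joined at switch regions of the heavy chain locus (Igh), which are transcribed beforehand. The enhancer cluster behind the constant genes, the 3' regulatory region, drives that transcription.

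Library totals ranged from 29.4 to 33.3 M estimated counts in activated KO cultures and from 29.6 to 33.9 M in unactivated KO cultures. Each library was quantified against transcripts and numbered genomic regions, and the regions made up 4.40% to 5.04% of all counts in activated cultures, against 3.78% to 4.74% in unactivated ones. A gene value is the sum of the regions that lie wholly inside 1 RefSeq gene, so it covers the stretches of a gene that the regions hold, not its whole transcript. Some gene values rest on 1 short region, such as Nfkbie (804 bases), Tap2 (780), H2-Aa (717), Myc (688), Cd40 (612) and Gtpbp4 (550). Transcripts were counted as a group and were not read gene by gene. Gene values existed for 10750 genes, and 4048 of them passed the filter on low counts. Values are given in CPM, counts scaled to a common library total. The strand setting is not given in the sources used here, so reads of a gene and of an antisense partner cannot be told apart. Of 10 markers of the B cell line, 5 had a region. Over all 12 libraries Ebf1 had 11774 counts, Pax5 3495, Blk 1928 and Cd79a 100, and these passed the filter. Cd22, with 39 counts, did not. Of 11 T cell markers with a region, 6 had at most 27 counts over all 12 libraries, with Bcl11b at 0. The other 5, Cd5, Tcf7, Lck, Cd28 and Ctla4, passed the filter, and Ctla4 had the most, 1025 counts.

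Activation changed the RNA of both KO lines widely. Of the 4048 gene values, 1140 were called higher (28.2%) and 233 lower (5.76%) in activated KO cultures, where a call means an adjusted p under 0.05. The sign was the same in KO1 and KO2 for every called gene value, which a fit that pools both lines favours. Over all 4048 gene values it was the same for 75.8%. At least 2-fold changes were found in 454 gene values called higher and 78 called lower, and 4-fold changes in 93 and 14. The 6 activated libraries did not overlap the 6 unactivated ones for 692 of all 4048 gene values (17.1%). The first principal component of the gene values held 55.1% of the variance and separated the states.

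The excess of higher calls moved with the scaling. The median log2 change was 0.26 over all gene values, 0.36 over regions inside 1 gene and 0.27 over regions outside genes, against -0.02 over the 45053 tested transcripts, of which 4436 (9.85%) were called higher and 5922 (13.1%) lower. Gene values took 1.12 ± 0.0819% of the counts in activated KO libraries and 0.939 ± 0.0684% in unactivated ones (SD, n = 6 each). By an exact 2-sided permutation test within lines, p was 0.005, the smallest that the 400 permutations can give, and 0.015 adjusted over 3 tests. With the scaling computed over gene values alone, 606 of 4016 gene values were called higher and 552 lower, and the median was -0.04. For this reason the calls of each gene group are given below under both scalings. The counts of a group are to be set beside those of all gene values. These were 28.2% higher and 5.76% lower, or 606 and 552 of 4016 with the scaling over gene values alone. A gene value with a log2 change of 0.26 stood at the middle of all genes. The lists were chosen with earlier results of these data known, so their counts and medians are descriptions and not tests.

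**Figure D1:**
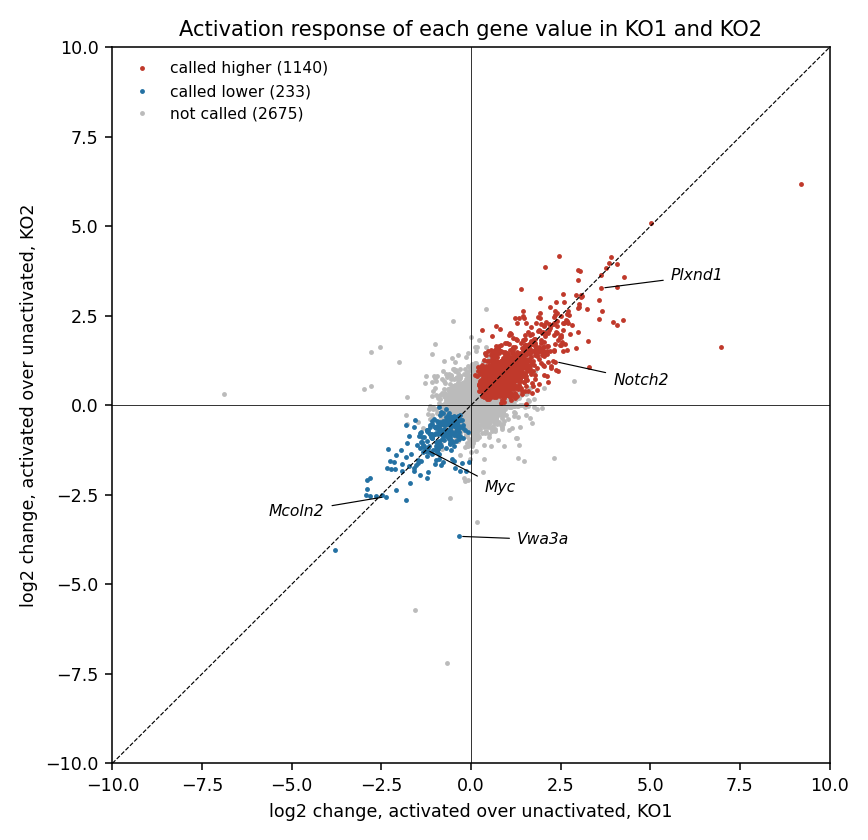
Each point is 1 of 4048 gene values. The x axis gives its log2 change in KO1 and the y axis in KO2, activated over unactivated. Red points were called higher (1140), blue points lower (233) and grey points were not called. The dashed line marks equal changes. Vwa3a lies off the line, at -0.34 in KO1 and -3.66 in KO2.

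Dkk3, a secreted protein of the Dickkopf family, was among the largest increases of gene values that averaged at least 5 CPM in either state. Its lowest, median and highest values were 5.36, 7.70 and 9.18 CPM in activated KO libraries, against 0.780, 0.888 and 1.07 CPM in unactivated ones. The log2 change was 3.04 ± 0.16 (standard error, adjusted p = 1.06e-11), and the groups were well apart.

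B4galt1, a galactosyltransferase, had 11.4, 12.1 and 14.5 CPM in activated KO libraries, against 1.65, 2.02 and 2.24 CPM in unactivated ones (log2 change 2.67 ± 0.12, adjusted p = 4.00e-12). Xylt1, which starts the glycosaminoglycan chains of proteoglycans, had 12.8, 15.7 and 19.3 CPM against 1.92, 2.59 and 2.92 CPM (2.62 ± 0.14, adjusted p = 1.06e-11). Both are enzymes of glycan assembly, and the groups of neither overlapped. Ptpn12, a protein tyrosine phosphatase, rose by 2.51 ± 0.13, with 5.42, 6.22 and 7.10 CPM in activated and 0.914, 1.11 and 1.36 CPM in unactivated libraries. The tetraspanin Cd82 rose by 2.50 ± 0.14 and stood at 7.89 to 14.3 CPM in activated libraries, against 1.65 to 2.31 CPM in unactivated ones.

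Ciita, the master activator of MHC class II genes, had 7.13, 7.79 and 10.5 CPM in activated KO libraries, against 1.02, 1.61 and 2.32 CPM in unactivated ones (log2 change 2.32 ± 0.15, adjusted p = 3.65e-10). Cxcr5, a chemokine receptor with a role in follicle entry, had 13.4, 15.5 and 19.1 CPM against 2.47, 3.09 and 4.03 CPM (2.30 ± 0.13). Rbpj, the DNA-binding partner of activated Notch, had 7.72, 12.6 and 16.2 CPM against 2.17, 3.00 and 3.77 CPM (2.10 ± 0.14). For all 3 genes every activated library lay above every unactivated one, although Rbpj spread widely within the activated group. N4bp1 (2.21 ± 0.17), the transcriptional repressor Zbtb18 (2.19 ± 0.36) and the membrane protein gene Ms4a4a (2.12 ± 0.19) were also among the 12 largest increases of called gene values that averaged at least 5 CPM in either state, numbered gene models left out. Zbtb18 rests on 1 region of 1524 bases, and 1 of its unactivated libraries was listed at 0.

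Among called gene values that averaged at least 5 CPM in either state, Mcoln2, an endolysosomal cation channel, had the largest decrease. It had 0.917, 1.54 and 2.02 CPM in activated KO libraries, against 7.15, 8.92 and 9.26 CPM in unactivated ones, a log2 change of -2.46 ± 0.14 (adjusted p = 5.99e-11). Fewer cells of a kind and less RNA per cell cannot be told apart in such bulk samples. Cmah, the enzyme that makes the sialic acid Neu5Gc, had 1.23, 1.66 and 2.02 CPM against 6.54, 7.83 and 8.40 CPM (-2.23 ± 0.13, adjusted p = 5.09e-11). Both genes were low in all 6 activated libraries. Ctnnbl1, a protein linked to the spliceosome, had 1.23, 1.86 and 3.39 CPM in activated libraries, against 4.42, 6.55 and 8.95 CPM in unactivated ones (-1.70 ± 0.14, adjusted p = 9.77e-09). In both states its KO1 libraries lay above its KO2 libraries.

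Myc, the growth regulator, had 9.61, 10.5 and 11.2 CPM in activated KO libraries, against 20.2, 23.5 and 33.3 CPM in unactivated ones (log2 change -1.24 ± 0.13, adjusted p = 2.91e-07). Its activated libraries were tightly grouped and all lay below the unactivated ones. The gene value of Myc rests on 1 region of 688 bases. Rgs13, an inhibitor of G protein signalling in germinal centre B cells, had 2.37, 3.16 and 3.77 CPM against 5.52, 6.85 and 8.51 CPM (-1.15 ± 0.14). Mdh1, cytosolic malate dehydrogenase, fell by 1.28 on the log2 scale, Colq by 1.24, the kinase gene Stk17b by 1.12 and the phosphohydrolase gene Nudt4 by 1.11. Plek, a substrate of protein kinase C, fell by 1.00 (7.03 ± 1.85 against 14.0 ± 2.25 CPM, SD, n = 6 each), and Gas7 fell by 0.96 (5.47 ± 1.36 against 10.6 ± 0.903 CPM).

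Vwa3a was called lower (log2 change -2.09 ± 0.77, adjusted p = 0.0418), but a single library stands out. KO2 unactivated replicate 3 had 31.4 CPM, the other unactivated libraries had 0.667 to 3.07 CPM, and the activated ones had 0.704 to 2.14 CPM. The groups thus overlap, and without that library the log2 change was -0.34 (adjusted p = 0.479). The call also ended when any 1 of 5 other libraries was left out. Zmynd8 itself was called higher, at 3.51 ± 0.697 CPM in activated and 1.93 ± 0.414 CPM in unactivated KO libraries (SD, n = 6 each; log2 change 0.86 ± 0.16, adjusted p = 2.97e-04). Its 6 regions may lie outside the deleted part, so the value does not check the knockout.

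**Figure D2:**
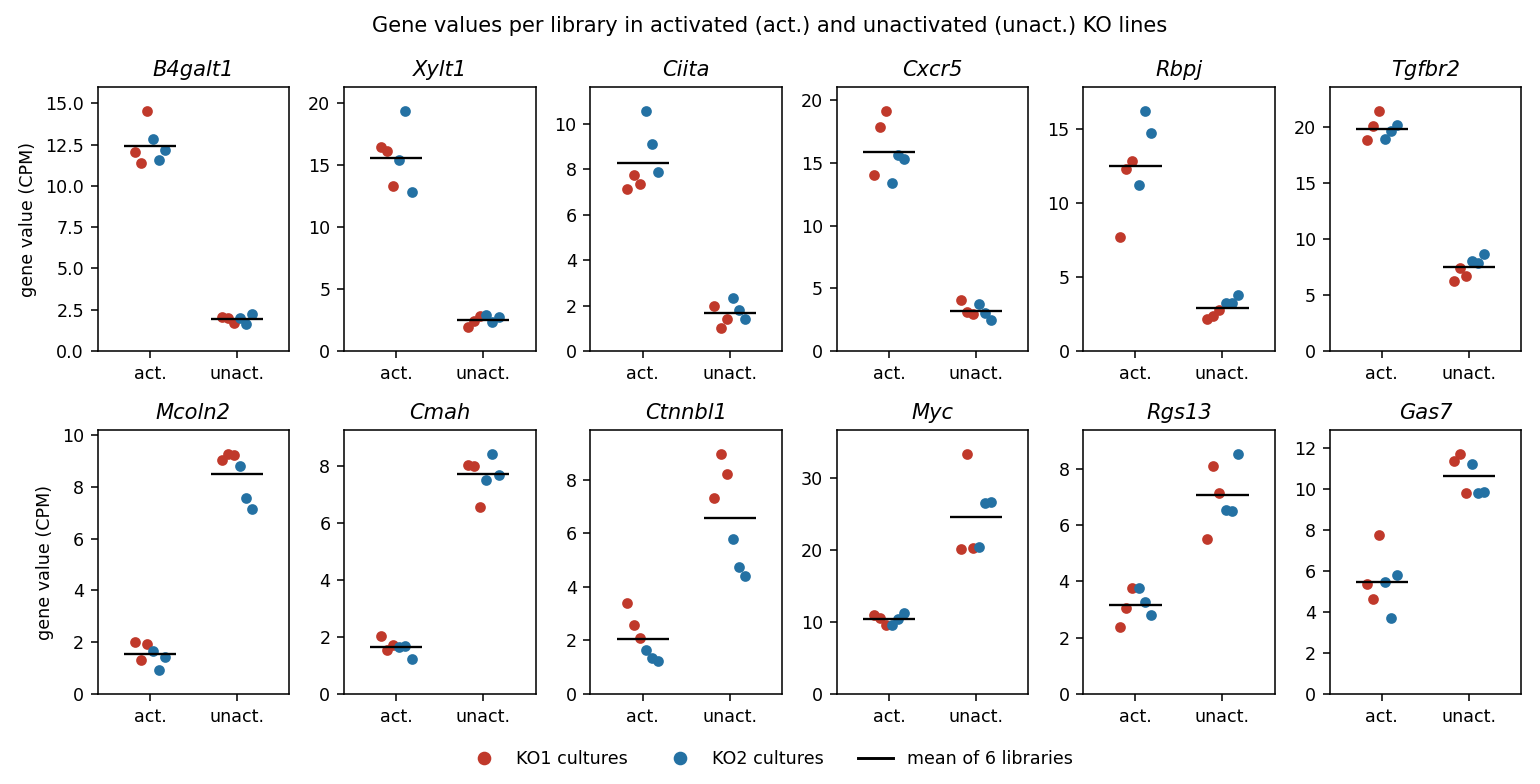
Each panel shows 1 gene, with its gene value in CPM on the y axis (from 0) and the activated (act.) and unactivated (unact.) KO libraries on the x axis. Points are single libraries of KO1 (red) or KO2 (blue), and bars are means of 6 libraries. In the upper 6 panels every activated library lies above every unactivated one, and in the lower 6 below.

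The list of CD40 and NF-kB genes, which holds parts of the pathway such as the receptor Cd40 beside its targets, was the group with the highest median. Of the 22 measured members 18 rose and 0 fell, where 28.2% of all gene values rose. Their median log2 change was 1.22, against 0.26 over all gene values. With the scaling over gene values alone, 16 rose and 0 fell, with a median of 0.93 against -0.04. The members were chosen with earlier results of these data known, so these counts describe the list and do not test it. Nfkbie, an inhibitor of NF-kB that NF-kB itself induces, had 1.57, 2.21 and 2.60 CPM in activated KO libraries, against 0.215, 0.317 and 0.380 CPM in unactivated ones (2.76 ± 0.19, adjusted p = 4.43e-10). Birc2, a ubiquitin ligase of the TNF receptor complexes, rose by 1.76 ± 0.17, Cflar, which blocks caspase-8, by 1.59 ± 0.17, and Bcl2a1b, a survival factor, by 1.62 ± 0.18. Bcl2a1b has near-identical copies, so its reads may be split among them. The receptor Cd40 rose by 1.59 ± 0.32 and the NF-kB subunit gene Nfkb1 by 1.25 ± 0.16, both picked after their values were seen. The 4 members not called were Cd86 (0.38), Birc3 (0.24), Relb (0.25) and Tbk1 (-0.28), named for completeness after their values were seen.

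The promoters of the 4 members of this list with the smallest p are shown because they were called higher together. Each is the 250 bases before the gene start in RefSeq (GRCm38.p6), 5' to 3' on the strand of the gene, and capitals mark a match to 1 of 5 motifs. Nfkbie lies at chr17:45555450-45555699 (+), Birc2 at chr9:7837058-7837307 (-), Cflar at chr1:58711241-58711490 (+) and Bcl2a1b at chr9:89199023-89199272 (+).
Nfkbie: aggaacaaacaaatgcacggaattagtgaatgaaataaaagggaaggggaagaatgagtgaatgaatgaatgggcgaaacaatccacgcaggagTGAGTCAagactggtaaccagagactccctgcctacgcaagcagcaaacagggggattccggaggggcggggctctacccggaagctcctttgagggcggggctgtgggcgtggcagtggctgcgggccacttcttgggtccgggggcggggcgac
Birc2: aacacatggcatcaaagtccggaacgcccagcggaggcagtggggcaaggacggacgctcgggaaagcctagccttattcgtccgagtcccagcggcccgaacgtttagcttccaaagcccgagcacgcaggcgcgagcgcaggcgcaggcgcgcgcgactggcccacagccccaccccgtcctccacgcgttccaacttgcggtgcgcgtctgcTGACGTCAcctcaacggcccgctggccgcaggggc
Cflar: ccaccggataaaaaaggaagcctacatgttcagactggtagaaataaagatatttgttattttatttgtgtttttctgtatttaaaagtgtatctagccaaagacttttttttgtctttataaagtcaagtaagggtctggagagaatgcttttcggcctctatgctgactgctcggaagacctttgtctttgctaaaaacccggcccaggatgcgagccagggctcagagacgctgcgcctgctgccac
Bcl2a1b: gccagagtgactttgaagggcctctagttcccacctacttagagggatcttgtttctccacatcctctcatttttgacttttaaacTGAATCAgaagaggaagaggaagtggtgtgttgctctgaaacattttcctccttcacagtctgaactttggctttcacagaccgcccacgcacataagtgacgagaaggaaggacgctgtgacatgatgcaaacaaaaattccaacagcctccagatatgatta
The motifs were the AP-1 site TGANTCA, the E-box CACGTG, a kappa-B site, a STAT site (GAS) and the cyclic AMP response element (CRE), searched on both strands, where matches to the kappa-B and STAT forms can share bases. Nfkbie and Bcl2a1b hold a match to the AP-1 form, at -156 and -164 from the start. That form allows any middle base, which is G in Nfkbie and A in Bcl2a1b. A narrower AP-1 form was not searched, so the AP-1 counts and shares below hold for the searched form only. Birc2 holds a CRE match at -35, and Cflar holds no match to the forms searched. The kappa-B site was searched in only 1 fixed form, so kappa-B sites of other forms were not found. The lack of a match therefore does not show that a promoter has no kappa-B site. Nfkbie holds a stretch close to the searched kappa-B form, which is left in lower case and was not counted. Whether it is a kappa-B site was not tested. The kappa-B counts and shares that follow hold for the searched form only. Among the members called higher, 15 of 18 had a promoter sequence. An AP-1 match was in 4 of them, a STAT match in 3, a kappa-B match in 2, an E-box match in 1 and a CRE match in 1. Of all 27025 promoters the AP-1 form is in 6.85%, the STAT form in 7.14% and the kappa-B form in 1.41%. Of the 3215 promoters of tested gene values these forms were in 4.14%, 5.69% and 1.37%. The E-box and CRE forms were in 8.15% and 2.18% of those 3215. Over all gene values called higher the AP-1 form was in 4.09% of 881 promoters and over those called lower in 6.59% of 182. A match is a description of these letters and not a bound site.

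Among TGF-beta and SMAD genes both receptors and several inhibitors rose. Of 17 measured, 10 rose and 1 fell (median log2 change 0.77), or 9 and 2 (median 0.47) with the scaling over gene values alone. The receptor gene Tgfbr2 had 18.8, 19.8 and 21.4 CPM in activated KO libraries, against 6.21, 7.63 and 8.64 CPM in unactivated ones (1.41 ± 0.11, adjusted p = 3.05e-09). Its groups were narrow and far apart. Ldlrad4, an inhibitor of SMAD activation, rose by 2.51 ± 0.15, Skil and Ski, corepressors of SMAD proteins, by 2.38 ± 0.18 and 1.67 ± 0.16. Tgfbr1 rose by 2.03 ± 0.20 and the inhibitory Smad7 by 1.89 ± 0.21, and the member that fell was the transcription factor gene Runx1 (-0.94 ± 0.15), 3 genes picked after their values were seen. The signalling SMAD genes, named after their values were seen, were not called, with Smad2 at -0.19, Smad3 at 0.10 and Smad4 at 0.08. Pmepa1, an inhibitor of the pathway, was not called either (-0.405 ± 0.23), and it was picked after its value was seen.

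Cytokine receptors and their kinases rose as well. Of 17 measured genes of IL-4, STAT and cytokine receptor signalling, 11 rose and 2 fell (median log2 change 0.66), or 8 and 3 (median 0.37) with the scaling over gene values alone. Il21r, the IL-21 receptor, had 8.40, 12.0 and 12.9 CPM in activated KO libraries, against 1.87, 3.07 and 5.08 CPM in unactivated ones (1.82 ± 0.18). The kinase gene Jak2 rose by 1.76 ± 0.19 and the IL-9 receptor gene Il9r by 1.63 ± 0.19. The members that fell were Batf3, an AP-1 partner (-1.46 ± 0.20), and Il10, an anti-inflammatory cytokine (-1.30 ± 0.24). Stat6, the factor that IL-4 activates, stood at 0.28 CPM in activated and 0.29 CPM in unactivated libraries and was not called (-0.02 ± 0.40). Il10 and Stat6 were picked after their values were seen.

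Most measured genes of the MHC class II list were called higher, Ciita among them. Of 9 measured genes 7 rose and 0 fell (median log2 change 0.83), or 4 and 0 (median 0.54) with the scaling over gene values alone. H2-Aa, the alpha chain of I-A, had 4.07, 7.29 and 11.3 CPM in activated KO libraries, against 3.25, 4.35 and 5.36 CPM in unactivated ones (0.79 ± 0.16, adjusted p = 8.12e-04). H2-Eb1, the beta chain of I-E, rose by 0.84 ± 0.18 and the protease gene Ctss, which trims the invariant chain, by 0.69 ± 0.14. The groups of both chain genes overlapped, unlike those of Ciita and Ctss. Not all members act towards presentation: Marchf1, a ubiquitin ligase that takes MHC class II off the cell surface, rose as well (0.83 ± 0.23, but not called with the scaling over gene values alone). H2-DMa (0.11) and Marchf8 (0.55) were not called, and these 3 genes were picked after their values were seen. Of 11 measured interferon response genes 7 rose and 0 fell (median log2 change 0.56), or 4 and 0 (median 0.26) with the other scaling. These included Nlrc5, the activator of MHC class I genes (1.36 ± 0.20), Tap2, a peptide transporter (1.30 ± 0.20), and Sp110, a nuclear body protein (0.56 ± 0.11).

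B cell identity genes changed in both directions. Of 38 measured genes of B cell identity and receptor signalling, 23 rose and 4 fell (median log2 change 0.54), or 15 and 6 (median 0.25) with the scaling over gene values alone. Itpr1, a calcium channel of the endoplasmic reticulum, rose by 1.30 ± 0.13, the adaptor gene Blnk by 1.26 ± 0.12, the lipid phosphatase gene Inpp5d by 1.06 ± 0.11 and Rasgrp3, an activator of Ras, by 1.33 ± 0.14. Blnk had 7.71, 9.13 and 9.75 CPM in activated KO libraries, against 2.95, 3.79 and 4.45 CPM in unactivated ones. The defining B lineage factors Pax5 (11.9 ± 1.31 against 6.17 ± 0.767 CPM, SD, n = 6 each) and Ebf1 rose by 0.95 ± 0.12 and 0.56 ± 0.12. The members that fell were the transcription factor genes Spi1 (-0.81 ± 0.14) and Ikzf1 (-0.45 ± 0.11), the receptor gene Cd180 (-0.45 ± 0.13) and the kinase gene Blk (-0.47 ± 0.16). These 6 genes were picked after their values were seen.

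Among homing, adhesion and motility genes most of those called rose. Of 33 measured, 21 rose and 3 fell (median log2 change 0.70), or 16 and 3 of 34 (median 0.39) with the scaling over gene values alone. Plxnd1, a semaphorin receptor, had 2.88, 3.29 and 4.69 CPM in activated KO libraries, against 0.246, 0.301 and 0.390 CPM in unactivated ones, the largest change of the group (3.45 ± 0.18, adjusted p = 1.06e-11). Sema4d, a semaphorin that binds CD72 and plexins, had 8.64, 10.1 and 10.7 CPM against 2.22, 2.54 and 3.14 CPM (1.89 ± 0.12). Cxcr5 and Cd82, given above, belong here too. Besides Rgs13, the integrin chain gene Itgb1 (-1.20 ± 0.17) and the plexin gene Plxnc1 (-0.40 ± 0.14) fell, the last 2 picked after their values were seen.

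The Notch pathway rose at its receptor and its DNA-binding factor. Of 18 measured genes 7 rose and 1 fell (median log2 change 0.33), or 6 and 1 (median 0.03) with the scaling over gene values alone. Over all gene values 28.2% rose and 5.76% fell. Beside Rbpj, the receptor gene Notch2 rose by 1.80 ± 0.18, Fbxw7, a ubiquitin ligase that removes active Notch, by 1.13 ± 0.15 and Dtx4, a Deltex ubiquitin ligase, by 1.12 ± 0.17. Notch2 had 8.89, 10.4 and 10.3 CPM in the activated KO1 cultures and 3.80, 5.29 and 4.88 CPM in the activated KO2 cultures, against 1.71 to 2.36 CPM in the unactivated cultures of both lines. All activated KO1 cultures lay above all activated KO2 cultures. The member that fell was Spen, a corepressor (-1.06 ± 0.36), picked after its value was seen.

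Of 11 measured factors of class switch recombination 2 rose and 0 fell, where 28.2% of all gene values rose and 5.76% fell. The median log2 change was 0.18, and -0.12 with the scaling over gene values alone, where the counts were also 2 and 0. Zmynd8 was among those that rose. Rad50, a subunit of the break sensor, was not called (0.36 ± 0.17), nor was the methyltransferase gene Kmt2d (-0.39 ± 0.31). Of 55 listed factors 28 had no region wholly inside the gene, so these counts cover a minority of them.

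Plasma cell genes went both ways. Of 17 measured genes 3 rose and 2 fell (median log2 change -0.04), or 3 and 5 of 16 (median -0.35) with the scaling over gene values alone. The shares over all gene values were 28.2% and 5.76%. Irf4, a transcription factor of activated B and plasma cells, had 2.91, 3.92 and 4.15 CPM in activated KO libraries, against 1.04, 1.47 and 1.84 CPM in unactivated ones (1.33 ± 0.16). Zbtb20, a transcription factor, rose by 0.78 ± 0.11 and Aff3, a transcriptional elongation factor, by 0.98 ± 0.14. Tram2, a translocon-associated protein, fell by 1.31 on the log2 scale. Prdm1, the gene of the plasma cell factor Blimp-1, fell by 0.79 (0.563 ± 0.171 against 0.976 ± 0.148 CPM, SD, n = 6 each), and it was picked after its value was seen.

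Among growth genes more fell than rose. Of 17 measured MYC and ribosome biogenesis genes 1 rose and 4 fell (median log2 change -0.18), or 1 and 7 (median -0.48) with the scaling over gene values alone. Besides Myc, the helicase gene Ddx21 fell by 0.62 on the log2 scale, Wdr43, a factor of early ribosome assembly, by 0.51 and the GTPase gene Gtpbp4 by 0.79. Gtpbp4 was picked after its value was seen, and its change was -0.05 in KO1 and -1.58 in KO2. The member that rose was Tcof1, a nucleolar factor of ribosomal RNA transcription (1.15 ± 0.17). Of 26 measured cell cycle genes 7 rose and 1 fell (median log2 change 0.07), or 4 and 3 (median -0.22) with the other scaling. The share that rose is close to the 28.2% of all gene values, so these counts do not set the list apart. The kinase gene Cdk6 rose by 1.19 ± 0.15, the cyclin gene Ccnd2 by 2.07 ± 0.31, Cdk17 by 0.75 ± 0.16 and Rbl2, a relative of the retinoblastoma protein, by 0.97 ± 0.21. Cdk1, the mitotic kinase, was the member that fell (-0.52 ± 0.20), picked after its value was seen.

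Genes that protect from cell death and genes that promote it both rose. Of 12 measured genes of apoptosis and p53 targets 7 rose and 0 fell (median log2 change 0.56), or 4 and 1 (median 0.27) with the scaling over gene values alone. The protective Bcl2l1 (1.53 ± 0.20) and Bcl2 (0.71 ± 0.13) rose, and so did the death-promoting Bcl2l11 (1.31 ± 0.17) and the death receptor gene Fas (1.31 ± 0.24). Of 8 measured immediate early and AP-1 genes 3 rose and 2 fell (median log2 change -0.10), or 2 and 4 (median -0.40) with the other scaling. Among all gene values 28.2% rose and 5.76% fell. Dusp10, a phosphatase of stress kinases, rose by 2.23 ± 0.18, Batf, an AP-1 factor needed for class switching, by 1.62 ± 0.25 and the RNA-binding factor gene Zfp36l1 by 1.72 ± 0.55. Zfp36l1 spread widely, with 1.345, 1.815 and 2.804 CPM in activated and 0, 0.189 and 1.93 CPM in unactivated libraries, so its groups overlapped. Its log2 change was 2.77 without KO2 unactivated replicate 2. Batf3 and Dusp5, a nuclear phosphatase of ERK, fell by 1.46 and 1.89. Batf and Batf3, closely related AP-1 factors, thus moved in opposite directions. Batf stood at 1.36 ± 0.262 CPM in activated and 0.436 ± 0.233 CPM in unactivated libraries, and Batf3 at 0.374 ± 0.124 and 1.03 ± 0.209 CPM (SD, n = 6 each).

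Lysosome, glycan and metabolic genes were mixed. Their counts stand beside 28.2% of all gene values called higher and 5.76% lower, or 606 and 552 of 4016 with the scaling over gene values alone. Of 21 measured lysosome and endosome genes 9 rose and 4 fell (median log2 change 0.23), or 5 and 5 of 19 (median -0.06) with the scaling over gene values alone. Tfeb, the main activator of lysosomal genes, rose by 1.13 ± 0.19, Laptm5, a lysosomal membrane protein, by 0.76 ± 0.13 and the protease gene Ctsh by 0.95 ± 0.17. Mcoln2 fell most, followed by Snx9 (-0.56), Glb1 (-0.52) and Vps13c (-0.38). Of 33 measured glycan and proteoglycan enzymes 13 rose and 4 fell (median log2 change 0.23), or 10 and 9 (median -0.06) with the other scaling. Beside B4galt1 and Xylt1, Chst11, a chondroitin sulfotransferase, rose by 2.04 ± 0.17, and beside Cmah, St3gal6 (-0.81), B3gnt2 (-0.77) and Ext2 (-0.51) fell. Of 22 measured genes of glycolysis, lipid and amino acid metabolism 4 rose and 5 fell (median log2 change -0.04), or 2 and 5 (median -0.34) with the other scaling. The sterol exporter gene Abcg1 rose by 1.41 ± 0.18, the hexokinase gene Hk1 by 0.73 ± 0.15, Elovl5 by 0.73 ± 0.22 and Slc38a2 by 0.61 ± 0.13. The amino acid transporter chain gene Slc3a2 fell by 1.099 and the transporter genes Slc38a1 by 0.58, Slc2a1 by 0.53 and Slc7a1 by 0.47. In this paragraph Snx9, Glb1, Vps13c, St3gal6, B3gnt2, Ext2, Elovl5, Slc38a2, Slc2a1 and Slc7a1, and Zfp36l1 above, were picked after their values were seen. The calls of Elovl5, Spen, Snx9, Blk, Slc2a1, Gtpbp4, Plxnc1, Vps13c and Cdk1 each ended on leaving out at least 1 library. With the scaling over gene values alone the calls of Sp110, Ebf1, Slc38a2, Elovl5 and Zfp36l1 ended.

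Markers of other cell types with a region were followed in the same libraries. The summed value of the 5 T cell markers that passed the filter was 2.08 to 3.51 CPM in activated KO libraries and 4.88 to 6.42 CPM in unactivated ones. Lck, Cd28 and Cd5 were not called. Ctla4, an inhibitory receptor, carried that difference (1.01 ± 0.436 against 4.43 ± 0.441 CPM; log2 change -2.18 ± 0.18), and Tcf7, a T cell factor, rose (0.493 ± 0.131 against 0.0648 ± 0.0468 CPM; 2.87 ± 0.41). Of 5 myeloid markers with a region 3 passed the filter. They summed to 1.64 to 2.60 against 1.62 to 2.24 CPM, and none was called. Csf1r and Adgre1, which did not pass, had 42 and 66 counts over all 12 libraries. Of 7 erythroid, stromal, endothelial and epithelial markers with a region 3 passed the filter, Pdgfrb, Pecam1 and Cdh5. All 3 rose (2 of them with the scaling over gene values alone) and summed to 3.21 to 3.94 against 1.49 to 1.98 CPM. Kdr, Cdh1, Pdgfra and Col1a1, which did not pass, had 10, 9, 4 and 0 counts. The part of these markers in the other results was not tested.

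**Figure D3:**
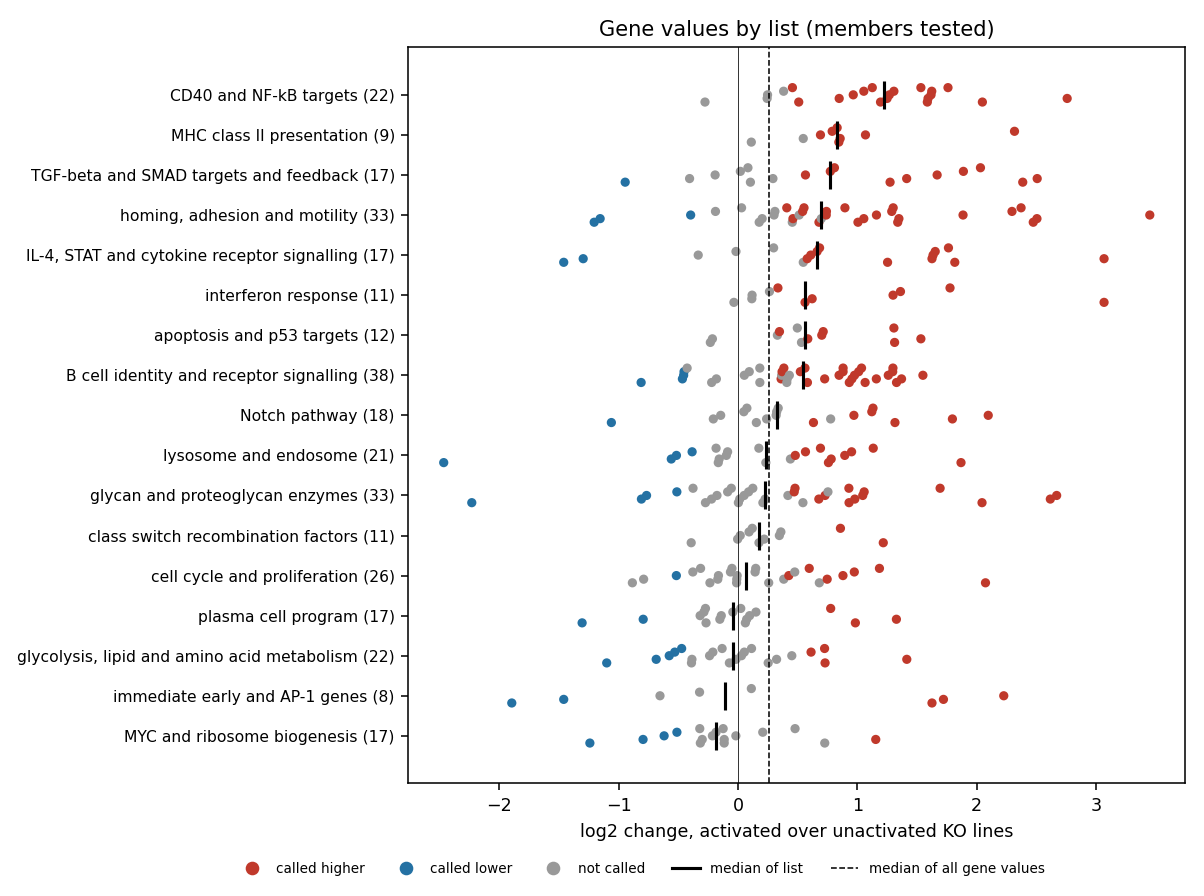
Each point is 1 gene value, placed by its log2 change (activated over unactivated KO lines) on the x axis and by its list on the y axis, with the number of members tested in brackets. Red points were called higher, blue lower and grey not called. Thick bars are list medians and the dashed line is the median of all gene values (0.26). The list labelled CD40 and NF-kB targets, which also holds parts of the pathway, has the highest median (1.22) and that of MYC and ribosome biogenesis genes the lowest (-0.18). The lists were chosen with earlier results of these data known.

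RNA from outside genes also responded to activation. Of 2289 tested regions outside genes 412 were called higher (18%) and 109 lower (4.76%), against 23.5% and 3.81% of the 5902 tested regions inside 1 gene. With counts summed to 1 value per line and state, 22 and 6 regions outside genes were called. Those called higher had a median length of 2632.5 bases, and 377 of the 412 lay within 50 kb of a gene. The share called in either direction was 20.6% of 1440 regions up to 10 kb from a gene, 25.7% of 704 at 10 to 50 kb and 29.7% of 145 farther away. For 112 regions called higher the nearest gene had a tested gene value, and that value was called higher for 81 of them (72.3%). For 25 regions called lower it was called lower for 6 (24.0%). The share of all gene values called higher is 28.2% and that called lower 5.76%.

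Among regions outside genes that averaged at least 2 CPM in either state, chr9:61168735-61169566 had the largest increase. It lies 23476 bases from the lncRNA gene I730028E13Rik. It had 4.89, 6.08 and 6.35 CPM in activated KO libraries, and in unactivated ones 0 to 0.0945 CPM. Over the groups this is 1133 against 5 counts, a ratio of 217 (95% exact counting interval 92.7 to 670; log2 change 7.59 ± 0.53, and 8.45 without KO1 unactivated replicate 1). Such intervals cover counting error only. The region chr8:78738374-78741275, 4362 bases from Slc10a7, had 441 against 18 counts, a ratio of 23.5 (14.7 to 39.96). The region chr13:63790900-63800691, 10288 bases from the repair gene Ercc6l2, had 6.80, 9.07 and 17.4 CPM in activated libraries, against 0.522, 0.617 and 0.812 CPM in unactivated ones (4.00 ± 0.25, adjusted p = 1.07e-06). It spread widely within the activated group, yet far from the unactivated libraries.

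The other named regions with increases had log2 changes of 3.13 to 4.16. They are chr10:96263538-96266896 near Gm40747, chr9:116243466-116245606 near Gm4668, chr4:3418338-3420664 near Gm11784, chr14:64037349-64038170 near Rp1l1 and chr3:84800876-84802906 near Gm35486. In none of them did the groups of libraries overlap.

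Among regions outside genes with decreases, chr14:15746605-15747447, 27657 bases from Gm31804, had 0.0917, 0.119 and 0.221 CPM in activated KO libraries, against 3.62, 4.12 and 5.53 CPM in unactivated ones (log2 change -4.93 ± 0.21). Its counts were 27 against 796. Both regions next to Scd1, a fatty acid desaturase gene, fell: chr19:44382657-44389358 by 2.11 on the log2 scale (1.75 ± 0.293 against 7.61 ± 1.496 CPM) and chr19:44376223-44379570 by 1.91 (1.06 ± 0.277 against 3.99 ± 0.898 CPM, SD, n = 6 each). The region chr15:62286672-62287945, 26457 bases from Pvt1, the lncRNA gene beside Myc, fell by 1.34 with overlapping groups. The region chr2:44956046-44957914, 25598 bases from Zeb2, fell by 1.45, while the gene value of Zeb2 stood at 0.02 ± 0.20. The regions chr1:184657171-184661088 near Rpl21-ps1, chr19:53419720-53426308 near Mirt1 and chr12:16382350-16387592 near Gm48606 fell by 2.45, 2.41 and 1.42.

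**Figure D4:**
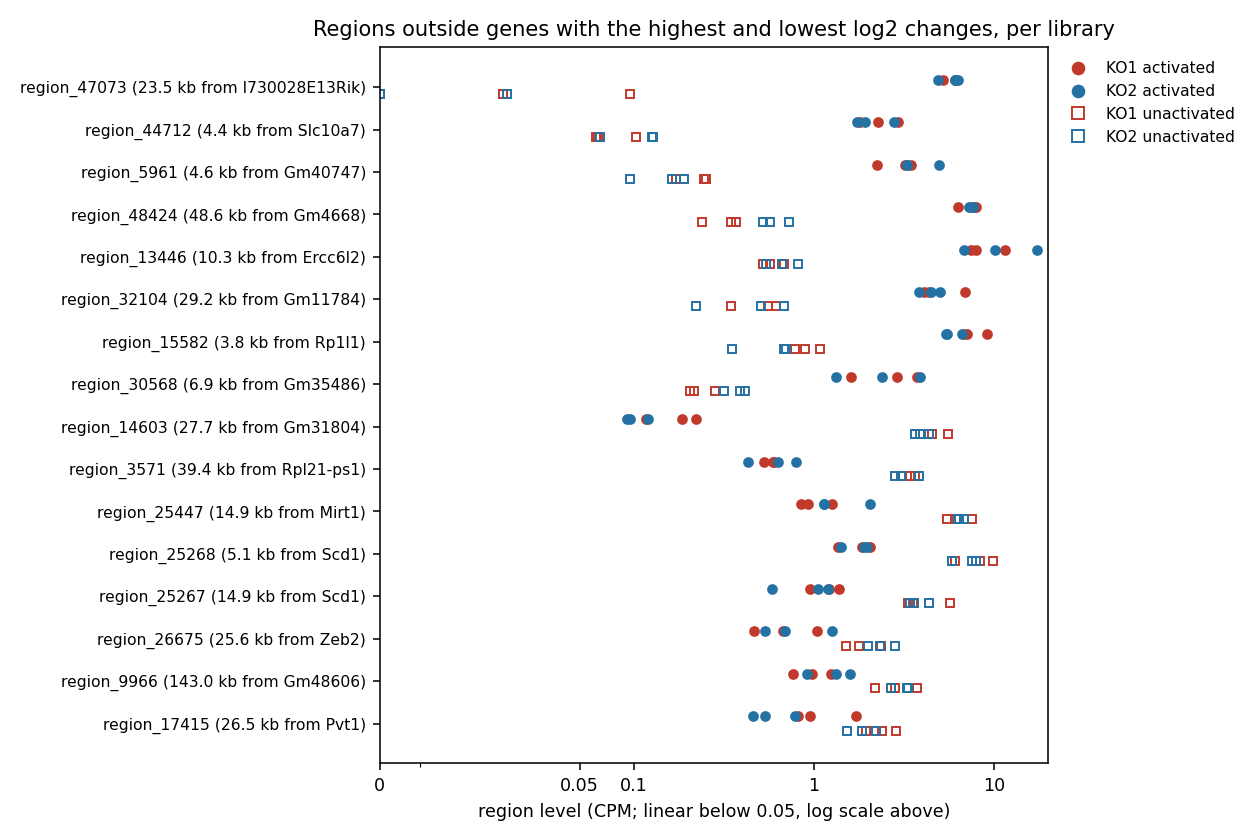
Each row is 1 of 16 regions outside genes, named by its nearest gene and distance, and the x axis is its level in CPM (linear below 0.05, log scale above). Filled circles are activated and open squares unactivated libraries, red for KO1 and blue for KO2. In the upper 8 rows all activated libraries lie above the unactivated ones. In the lower 8 they lie below, except for the region near Pvt1, where the groups overlap.

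At the Igh locus RNA was read from the constant genes, the switch intron of the alpha gene and the 3' regulatory region. The target named for the switch intron of the mu gene had 0 counts in both states. Its position is not given, and reads of that intron could have been counted in the region that overlaps Ighm, Ighj4 and Ighj3. The 0 therefore does not show that this RNA was absent. Summed over 5 regions and the 4 named enhancer elements, the 3' regulatory region gave 31.8 ± 7.95 CPM in activated and 26.3 ± 4.14 CPM in unactivated KO libraries (SD, n = 6 each), a ratio of 1.21. Of these parts, chr12:113253592-113254334 and the element hs12 had 0 counts in both states, and hs4 had 6 against 11. By the exact permutation test within lines p was 0.205, also after adjustment over 3 tests. The activated KO1 cultures had 41.0, 27.9 and 24.6 CPM and the activated KO2 cultures 42.8, 28.5 and 26.1 CPM, while the unactivated KO1 cultures had 30.8, 21.7 and 24.6 CPM and the unactivated KO2 cultures 32.1, 23.6 and 25.2 CPM. In each of the 4 groups the culture numbered 1 was the highest. Within each line every activated culture lay above the unactivated culture of the same number, by little for number 3. With labels permuted within these same-numbered pairs, an alternative added after seeing the data, the exact p was 0.03125 (0.0469 adjusted over 3 tests). That is the smallest p that its 64 permutations can give. The result for this region thus depends on whether the numbers mark pairs, which the labels do not say. The enhancer element hs3a stood at 0.60 ± 0.24 and was not called, and hs3b, which is nearly identical to it, stood at -0.36 ± 0.30.

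Targets at the locus were tested among all 54694 targets, of which 12.0% were called higher and 11.6% lower. The switch intron of the alpha gene, transcribed before switching to IgA, was called higher in activated KO cultures. It had 2.08, 3.03 and 3.48 CPM in activated libraries, against 0.318, 0.653 and 1.26 CPM in unactivated ones (log2 change 2.15 ± 0.27, adjusted p = 1.48e-04). The region inside Igha itself, chr12:113257093-113257733, had 9.19 ± 0.563 and 8.56 ± 0.390 CPM and was not called (0.10 ± 0.07). The region that overlaps Ighm, Ighj4 and Ighj3, chr12:113418607-113429316, fell by 0.50 on the log2 scale (273.5 ± 19.3 against 386.0 ± 28.96 CPM). The mu enhancer element, for which no position is given, fell by 0.59. The groups overlapped for neither. Towards the gamma genes, chr12:113314446-113315182 had 294 counts over the 6 activated libraries and 0 over the 6 unactivated ones, at least 93.9-fold higher taking 3 counts summed over the 6 unactivated libraries as the floor. The neighbouring region that overlaps Ighg1, chr12:113320797-113329753, had 110 against 27 counts, a ratio of 3.90 (2.54 to 6.19). With the counts summed to 1 value per line and state, the calls at the switch intron, the mu enhancer, Ighm and both gamma regions were lost.

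The next comparison set the response of KO1 against that of KO2. By edgeR 0 of 4048 gene values (0%) were called for a difference between their responses, DESeq2 also called 0, and 197 had an unadjusted p under 0.05 in edgeR. Without the filter on low counts 21 were called with a higher and 17 with a lower response in KO1, Notch2 among them. Simulated differences between the clones were placed only in gene values at or above the median level. Those of 2-fold were called in 25% of cases and of 4-fold in 90%, so a 2-fold difference would mostly be missed. Across gene values, which are not independent replicates, the log2 changes of KO1 and KO2 correlated with r = 0.71. The smallest p belonged to Notch2, which changed by 2.34 in KO1 and 1.22 in KO2 (difference 1.12 ± 0.26, adjusted p = 0.790). Blk stood at -0.90 in KO1 and -0.06 in KO2 (difference -0.84 ± 0.27), and its activated KO2 cultures, at 4.31 to 6.59 CPM, lay above the activated KO1 cultures, at 2.69 to 3.54 CPM. Gtpbp4, Ppm1h, Cuedc1 and Il31ra were the others among the 6 with the smallest p. Il31ra and Ppm1h rest on single libraries. Il31ra had 202 CPM in KO2 unactivated replicate 3 and 5.20 to 11.95 CPM in every other KO library, and Ppm1h had 110 CPM in KO1 unactivated replicate 2 and 61.7 CPM in KO2 activated replicate 1.

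Whether loss of ZMYND8 goes with another response was asked by setting the response of the KO lines against that of the WT lines. In a fit of all 24 RNA-seq libraries, 25 of 4485 gene values (0.557%) were called for a difference between the responses, 19 (0.424%) with a higher log2 change in KO and 6 (0.134%) with a lower one. In the same fit 1080 gene values (24.1%) were called higher and 189 (4.21%) lower on activation of the KO lines, and 738 (16.5%) and 244 (5.44%) on activation of the WT lines. A total of 572 were called higher in both, which is 52.96% of the KO calls and 77.5% of the WT calls, and 119 were called lower in both, which is 62.96% of the KO calls and 48.8% of the WT calls. The calls found in only one genotype are not by themselves a difference between them. Simulated differences between the genotypes, placed only in gene values at or above the median level, were called in 52% of cases at 2-fold and 98% at 4-fold.

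Ctnnbl1 had the smallest p. It fell by 1.70 on the log2 scale in the KO lines, where it stood at 2.03 ± 0.808 CPM with and 6.48 ± 1.89 CPM without activation (SD, n = 6 each). In the WT lines it stood at 2.76 ± 1.09 and 2.20 ± 0.620 CPM, a log2 change of 0.34 that was not called. The difference between the responses was -2.04 ± 0.29 (adjusted p = 6.94e-04). The unactivated KO cultures were thus the high group.

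Adamts14, a procollagen protease, fell less in the KO lines (log2 change -0.49 ± 0.15; 25.5 ± 6.65 against 35.3 ± 3.31 CPM) than in the WT lines (-1.85 ± 0.15; 5.91 ± 1.86 against 20.7 ± 2.76 CPM), with a difference of 1.36 ± 0.21 (adjusted p = 0.00141). Gas7 also fell less in KO (-0.95, to 5.43 ± 1.34 CPM, against -2.25, to 6.36 ± 2.80 CPM, in WT), with a difference of 1.30 ± 0.29 (adjusted p = 0.0290). Without activation Gas7 stood at 10.5 ± 0.956 CPM in KO libraries, against 29.3 ± 6.81 CPM in WT libraries. Blk fell by 0.47 in KO and by 1.51 in WT (difference 1.04 ± 0.23, adjusted p = 0.0305). The call of Gas7 ended when any 1 of 10 libraries was left out, and that of Blk when any 1 of 13 was. Ptpn12 rose more in KO (2.53 ± 0.17) than in WT (1.18 ± 0.16), with a difference of 1.35 ± 0.23 (adjusted p = 0.00444).

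Igha and Coro2a responded less in the KO lines. Igha had 9.12 ± 0.589 CPM in activated and 8.43 ± 0.401 CPM in unactivated KO libraries, and 9.34 ± 1.08 and 4.64 ± 0.478 CPM in the WT libraries (SD, n = 6 each), a difference of responses of -0.89 ± 0.16 (adjusted p = 0.00464). Only the unactivated WT libraries were low. Coro2a, an actin-binding protein of the coronin family, rose by 0.74 ± 0.11 in KO and by 1.61 ± 0.11 in WT, a difference of -0.87 ± 0.16 (adjusted p = 0.00514). Its levels were 13.3 ± 1.497 and 7.97 ± 0.365 CPM in KO libraries, and 22.9 ± 1.72 and 7.58 ± 1.39 CPM in WT libraries, with and without activation. The WT lines here are a parental culture and 1 clone, so differences between single lines cannot be told apart from the loss of ZMYND8.

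**Figure D5:**
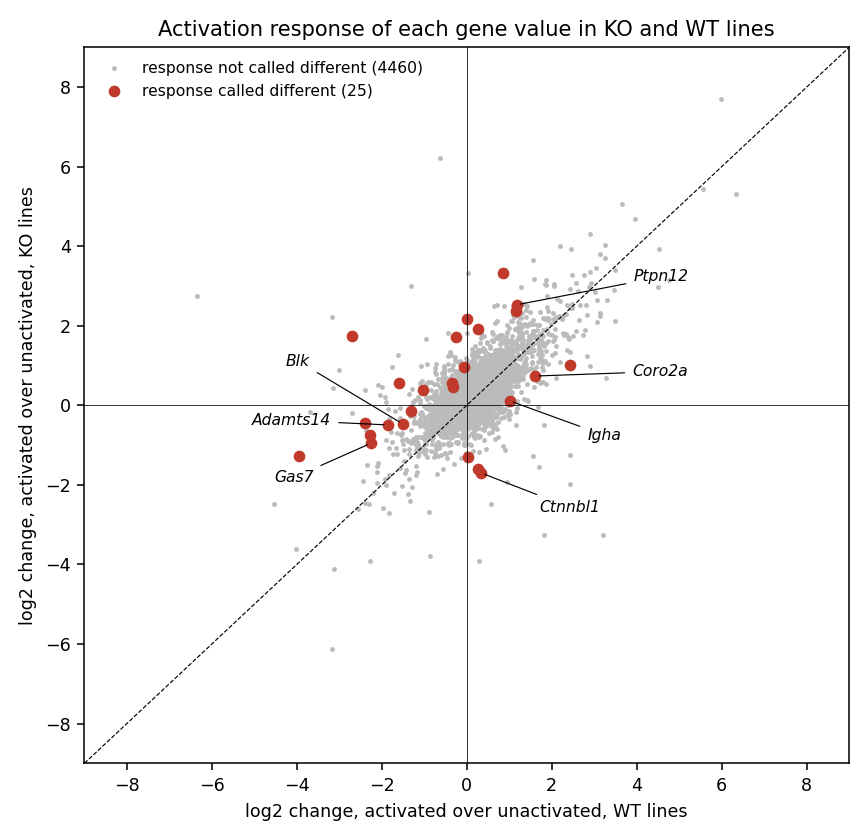
Each point is 1 of 4485 gene values, with its log2 change on activation (activated over unactivated) in the WT lines on the x axis and in the KO lines on the y axis. Red points are the 25 whose responses were called different, grey points are the rest, and the dashed line marks equal responses. Ctnnbl1 lies below the line and Ptpn12 above it.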

How the data were processed

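RNA was measured by RNA-seq in 12 KO and 12 WT libraries, and groups and replicate numbers come from the labels. Per the submitters' processing notes, kallisto 0.43.0 was used, with GRCm38.p5 as build and DESeq2 among the tools. The deposited tables give estimated counts and TPM per target, as kallisto wrote them for the authors. TPM was not used here, and 0 sample columns were left unmapped.

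Estimated counts were rounded. A gene value is the sum of the regions wholly inside 1 RefSeq gene (GRCm38). Fits used edgeR 4.0.16 (R 4.3.3), its quasi-likelihood test, TMM scaling over all targets and its filter on low counts, with the line as covariate and Benjamini-Hochberg adjustment over all features. Differences between KO and WT used 8 group means. The labels do not say whether cultures were independent, so p-values measure only the spread between these libraries. On simulated data 90% of 2-fold changes in gene values were recovered. The changes were placed only in gene values at or above the median level, so recovery at lower levels was not tried.

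Genes were named by size of change among calls of at least 5 CPM (12 per direction), regions likewise from 2 CPM (8 per direction), and up to 4 per list by smallest p. Others are marked in the text. Some genes that this rule names are not reported here. The members and lists were chosen with earlier results of these data known. Alternatives were another scaling, DESeq2 1.42.0, no filter, a replicate block, summed counts, 24 libraries, single lines and each library left out.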

Additional observations from a re-analysis of the deposited data

Results flagged for a closer look

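In groups of 6 libraries, 17 of 302 sets of values had 1 library far from the others, by the gap to the nearest library as a share of the range. Chance gives about 1 in 20 such sets. KO2 unactivated replicate 1 was the highest library for Colq (9.97 CPM), Plek (18.4 CPM), Aff3 (4.29 CPM), Ebf1 (32.3 CPM) and Blk (7.34 CPM). KO2 unactivated replicate 3 stood apart for Vwa3a at 31.4 CPM, and KO1 activated replicate 3 for Vwa3a at 2.14 CPM and for Pax5 at 14.4 CPM.

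KO1 activated replicate 2 was high for Birc2 (5.26 CPM), KO2 activated replicate 2 for Wdr43 (1.47 CPM), KO2 activated replicate 1 for Cdh5 (1.203 CPM) and KO1 unactivated replicate 2 for Itgax (0.717 CPM). Low libraries were KO2 activated replicate 3 for Il21r (8.40 CPM), KO1 activated replicate 1 for Slc38a1 (2.72 CPM) and KO2 unactivated replicate 2 for Cd28 (0.2535 CPM). Among regions outside genes, the one near I730028E13Rik had 0.0945 CPM in KO1 unactivated replicate 1, and the one near Mirt1 had 2.05 CPM in KO2 activated replicate 3.

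Between genotypes, the log2 response in KO minus that in WT was called for Adamts14 (1.36), Ptpn12 (1.35), Gas7 (1.30), Blk (1.04), Ctnnbl1 (-2.04), Igha (-0.89) and Coro2a (-0.87). These are tests of the difference itself, in the fit of 24 libraries.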

How the results depend on the processing

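KO1 alone gave 688 gene values called higher and 118 lower, 1741 and 2063 transcripts, and 107 and 31 regions outside genes. KO2 alone gave 673 and 130 gene values, 2217 and 3142 transcripts, and 143 and 40 such regions. These fits hold 6 libraries in place of 12. The scaling over gene values alone gave 606 and 552 gene values. Counts summed per line gave 600 and 478 transcripts and 22 and 6 regions outside genes. The cause of these shifts was not tested. Without the low-count filter 21 and 17 gene values differed between KO1 and KO2, and 56 and 23 between KO and WT, where DESeq2 gave 44 and 11.

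With 1 library left out, 1000 to 1148 gene values were called higher and 208 to 248 lower, 3793 to 4277 and 4936 to 6253 transcripts, and 348 to 398 and 90 to 107 regions outside genes. Differences between KO1 and KO2 stayed at 0 calls. Those between KO and WT numbered 10 to 31 and 4 to 8, with 10 higher without KO2 activated replicate 1, and 31 without WT unactivated replicate 1 and also without WT clone unactivated replicate 3. Of 164 named results, 14 changed their call with some library left out and 0 changed direction.

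The labels do not say what a replicate number marks, and the main fit had no block for it. Not all same-numbered pairs correlated above 0.1. Their r ran from -0.116 to 0.347 (median 0.0842, against -0.0534 for other pairs), and 10 of 12 libraries correlated best with their own number, which is a hint of shared numbers in the data. With the labels permuted within same-numbered pairs, a replicate block added after seeing the data, the difference of 5.507 CPM in the 3' regulatory region passed the threshold (exact 2-sided p = 0.03125, the smallest that 64 permutations can give, adjusted p = 0.0469). The replicate block gave 1174 and 256 gene values, and 34 and 11 differences between KO and WT. Reversed directions were those of Kmt2d (0.27) and Mrc1 (0.16) in KO2 alone and of Cd28 (-0.14) with the scaling over gene values alone, none of them called. Gene values hold 0.852% to 1.18% of the counts of a KO library, which limits the genes that could be tested to 4048.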
